A study of Mus musculus with 26 samples.

Results

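Established chemically induced pluripotent stem cells (CiPSC, 6 libraries) were compared with mouse embryonic fibroblasts sampled at day 0 (MEF, 1 library), which are the end state and the start state of chemical reprogramming. These 7 libraries were taken by their labels from the 26 mouse libraries of the series, whose other libraries follow reprogramming courses and are not compared here. All 7 come from total RNA read by RNA sequencing. The labels call one group iPSCs and the other MEF cells, and give no strain, genotype, sex, embryo age, clone, passage, culture medium or feeder layer. They do not say whether the CiPSC descend from these fibroblasts or whether the 6 CiPSC libraries are separate lines. How much of the spread among CiPSC is technical is therefore not known, and Y-linked genes given below differed among the 6 libraries. Which cells were grown, handled and sequenced together cannot be told apart from the groups.

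Chemical reprogramming uses small molecules in place of introduced transcription factor genes. Pluripotent stem cells keep an epithelial-like shape, divide rapidly and depend on a network of transcription factors around Pou5f1, Sox2 and Nanog, while fibroblasts are motile mesenchymal cells that make collagen-rich matrix and contractile stress fibres. In the mouse, the naive form of pluripotency also opens many germline genes and imposes a particular use of glycine and threonine.

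Levels are given as the authors' deposited normalized score, in which every library was forced to nearly the same distribution. The 7 libraries summed to between 4143561 and 4154952, had medians of 76 or 77, and shared a highest value of 21988 that exactly 10 genes reached in each. A gene at that ceiling cannot show a further increase, and the sequencing depth behind the values is unknown. Because the number of genes at the ceiling is the same in each library, a gene's place there also depends on the ranks of other genes. Genes at 0 made up 10.4% to 14.2% of each CiPSC library and 10.8% of the MEF library. Scores are not known to be corrected for gene length, so levels are compared between libraries and not between genes. A difference is that of log2(score + 1), CiPSC minus MEF, and its error is limma's moderated standard error (SE). The spread behind every SE comes from CiPSC alone, with MEF assumed to vary alike, so each adjusted p speaks for this MEF library and not for other fibroblast cultures. Libraries within CiPSC stood apart in places, CiPSC 2 in targets of p53 and CiPSC 3 and CiPSC 4 in Y-linked genes, and without CiPSC 2, CiPSC 3 or CiPSC 4 the counts of called genes given next became 5793, 5304 and 5513. An exact permutation of 1 library against 6 cannot give a one-sided p below 0.143.

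Across the transcriptome, 16077 of 16718 genes had a mean score of at least 1 and were tested. A gene was called when its Benjamini-Hochberg adjusted p was under 0.05 and its difference at least 1 on the log2 scale. By that rule 5726 genes (35.6%) were called, 3129 of them higher in CiPSC (19.5%) and 2597 lower (16.2%). By adjusted p alone 40.9% passed, and the MEF score lay outside the range of the 6 CiPSC scores in 68.1% of the tested genes. The shares by the full rule are the background against which every gene group below is read. The tested genes had a median difference of 0.18, and centring the libraries on their shared genes, which moved CiPSC against MEF by 0.119, brought it to 0.06 and the split to 2834 higher and 2815 lower. Among called genes, 643 were higher and 1020 lower by at least 4 on the log2 scale, and 62 were higher and 118 lower by at least 8, counts that include genes at 0 in one state, whose size depends on the pseudocount. In all, 552 genes were above 0 in every CiPSC library and listed at 0 in MEF, while 476 were above 0 in MEF and listed at 0 in every CiPSC library. No fold is given for either set. Of the tested genes, 398 were at 0 in every CiPSC library and so showed no spread of their own. On the X chromosome, 19.6% of 669 tested genes were higher in CiPSC and 9.27% lower, whereas on the other chromosomes, Y left out, 13.1% to 21.3% were lower.

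**Figure D1:**
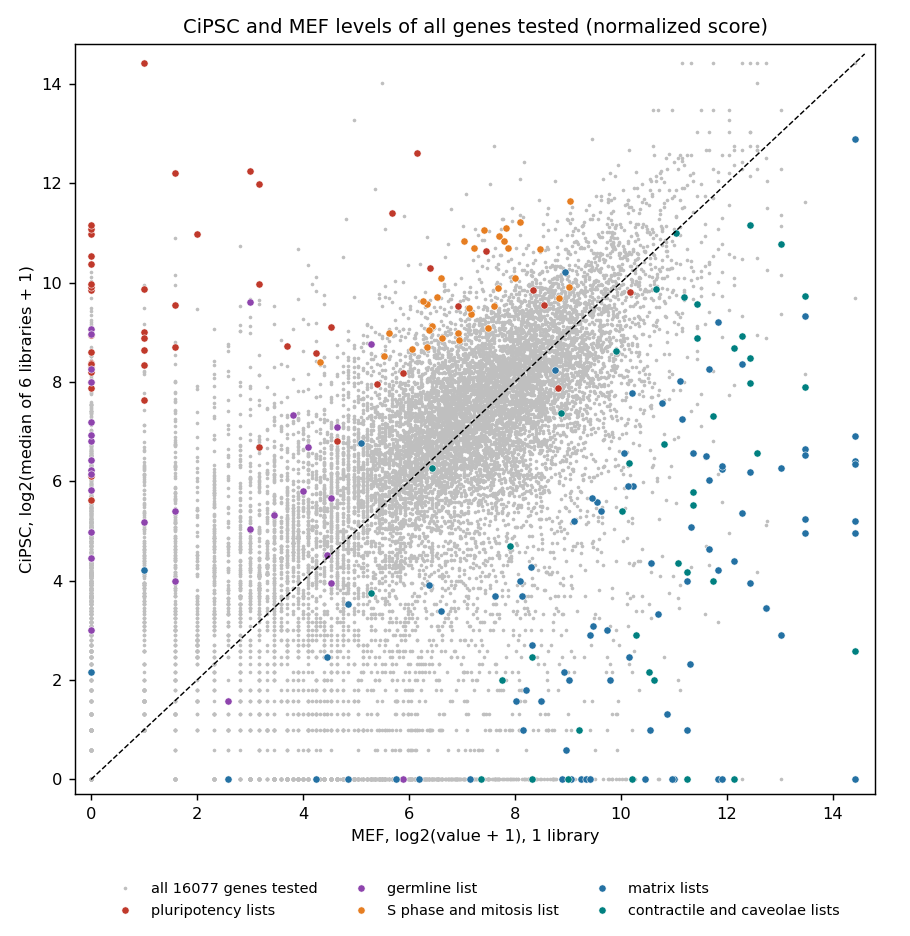
Each dot is 1 of the 16077 genes tested, with its CiPSC level (vertical axis, log2 of the median of 6 libraries + 1) against its MEF level (horizontal axis, log2 of 1 library + 1). The dashed line marks equal levels, and coloured dots are members of gene lists. Pluripotency, germline and S phase genes lie mostly above the line, and matrix, contractile and caveolae genes mostly below it.

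Markers of the labelled cell types followed their labels. All 10 pluripotency markers checked (Pou5f1, Nanog, Sox2, Zfp42, Esrrb, Tdgf1, Utf1, Dppa5a, Fbxo15 and Lin28a) rose in CiPSC, and their MEF scores were between 0 and 7. Of 12 fibroblast markers, 11 fell in CiPSC, and Dcn was the exception. The proteoglycan gene Dcn ranged from 0 to 105 in CiPSC (median 19.5), against 1517 in MEF. Its CiPSC libraries all lay far below MEF, yet they differed so much among themselves that the difference was not called (adjusted p = 0.11).

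**Figure D2:**
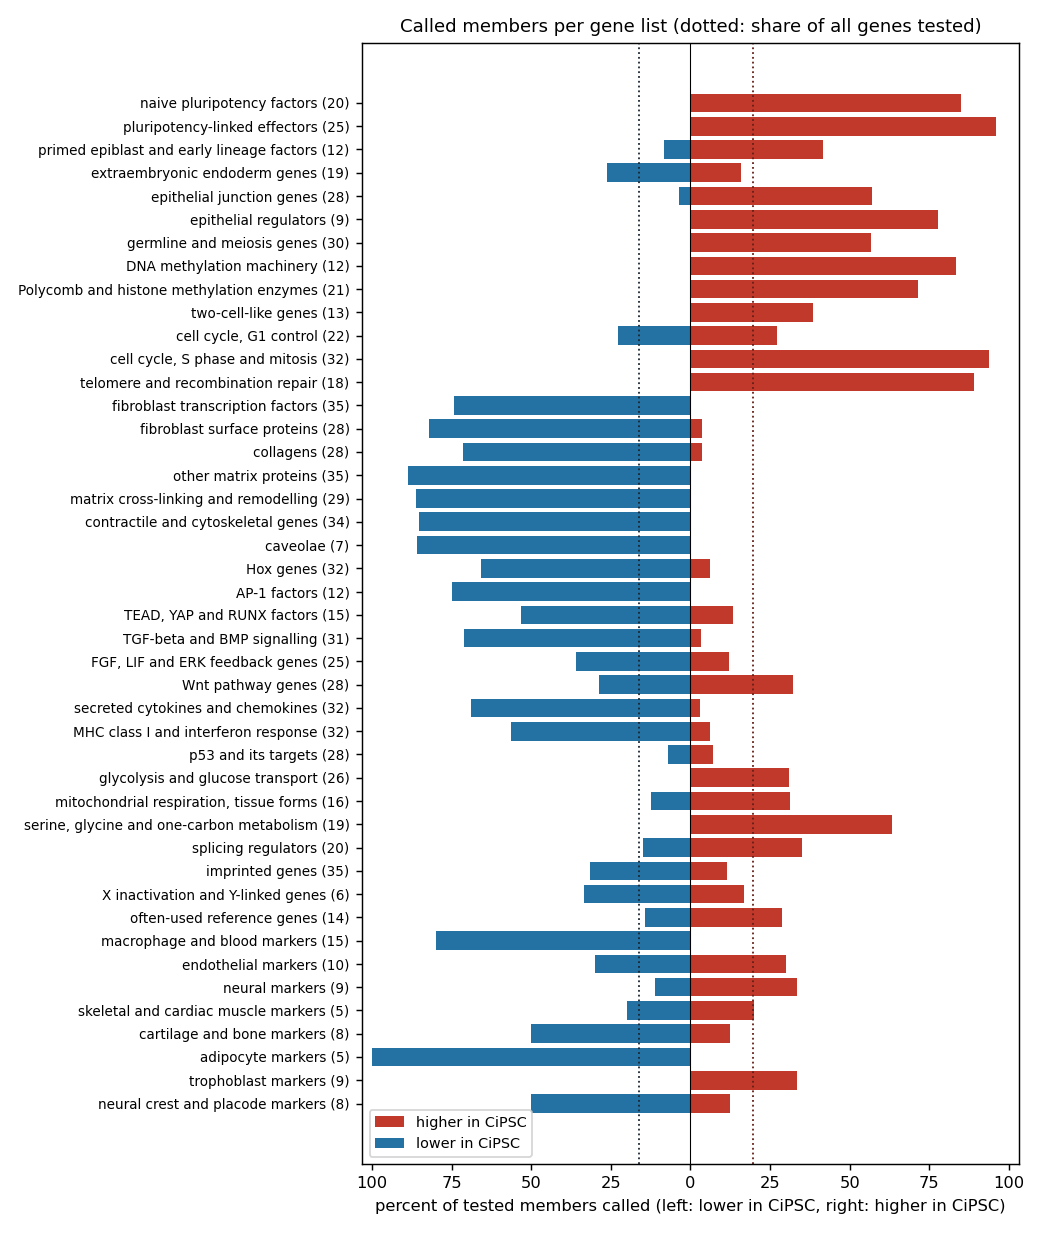
Share of tested members called higher in CiPSC (right, red) or lower (left, blue) for each gene list with at least 5 tested members, whose number stands in parentheses. Dotted lines mark the background over all genes tested, 19.5% higher and 16.2% lower. Pluripotency, S phase and DNA repair lists reach far to the right, and matrix, contractile and fibroblast lists far to the left.

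Transcription factors of the pluripotency network rose together. The core factors Pou5f1, Nanog and Sox2 were called higher, 3 of 3, as were 17 of 20 naive factors, with none lower. Pou5f1, a POU-domain factor at the centre of the network, ranged from 4501 to 5522 in CiPSC (median 4730), against 2 in MEF. Its 6 CiPSC libraries lay close to each other, and the difference was 10.65 (SE 0.14). Nanog ranged from 2762 to 8314 in CiPSC (median 4868.5), against 7 in MEF, which made it the most variable of the core factors among the CiPSC libraries. Sox2, the DNA-binding partner of Pou5f1, ranged from 1490 to 2167 in CiPSC (median 2007), against 3 in MEF.

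Several naive factors were listed at 0 in MEF. Esrrb, an orphan nuclear receptor that maintains naive self-renewal and lies on chromosome 12 (mm10, 86361117 to 86521628), ranged from 1832 to 2414 in CiPSC (median 2155.5) and was at 0 in MEF. Zfp42, a zinc-finger gene long used as a marker of embryonic stem cells, ranged from 972 to 1515 in CiPSC (median 1333) and was also at 0 in MEF. The groups did not overlap for either gene, and MEF lay outside the CiPSC range in 68.1% of all genes tested. Of the 20 naive factors, 8 were at 0 in MEF and above 0 in every CiPSC library, a pattern held by 552 of 16718 genes. Tfcp2l1, a factor downstream of LIF and Stat3 signalling, ranged from 2550 to 5530 in CiPSC (median 4027), against 8 in MEF, a difference of 8.71 (SE 0.42, adjusted p = 2.2e-05). The median difference of the naive list was 5.44, or 4.49 with a pseudocount of 5, against 0.18 for all genes tested.

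The Krüppel-like factors, all above 0 in MEF, did not share this pattern. Klf4, a zinc-finger factor of the classical reprogramming cocktail, ranged from 682 to 923 in CiPSC (median 900.5), against 1150 in MEF, and was not called (difference -0.44, SE 0.18, adjusted p = 0.099). Every CiPSC library was nevertheless below MEF, though MEF lay outside the CiPSC range in 68.1% of all genes tested. Klf2 ranged from 655 to 963 in CiPSC (median 919.5), against 322 in MEF, and was called higher by 1.41 (SE 0.22). Klf5 ranged from 202 to 467 in CiPSC (median 288), against 58 in MEF, and was called higher by 2.34 (SE 0.40). The other naive factors not called were the retinoic acid receptor gene Rarg (170 to 477 in CiPSC, 448 in MEF) and Nacc1 (553 to 1058 in CiPSC, 371 in MEF).

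Effectors of pluripotency rose almost throughout. Of 25 signalling, RNA-binding and other effector genes, 24 rose in CiPSC and none fell, with a median difference of 7.87 (6.09 with a pseudocount of 5). Dppa5a, an RNA-binding protein gene of early embryos on chromosome 9, was at the ceiling of 21988 in 4 CiPSC libraries and at 8307 in CiPSC 4 and CiPSC 6, against 1 in MEF. It had the largest difference among called genes above 0 in all 7 libraries, 12.96 (SE 0.72), and the ceiling means that this size cannot be read further. Lefty2, a secreted Nodal inhibitor, ranged from 616 to 1212 in CiPSC (median 936.5), against 1 in MEF. Nodal itself ranged from 394 to 651 in CiPSC (median 468.5), against 1 in MEF, so ligand and inhibitor were high together. Fgf4, the growth factor that embryonic stem cells secrete onto themselves, ranged from 884 to 1272 in CiPSC and was at 0 in MEF. Alpl, the tissue-nonspecific alkaline phosphatase used to stain pluripotent colonies, ranged from 1580 to 2545 in CiPSC (median 2007.5) and was at 0 in MEF.

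Eras was the one effector not called. This Ras-like gene was at 32, 0, 8, 65, 120 and 80 in CiPSC 1 to 6 and at 0 in MEF. One CiPSC library was thus as low as MEF, and the CiPSC libraries spread widely (adjusted p = 0.21). Among the 10 largest rises of called genes above 0 in all 7 libraries stood Calcoco2, an autophagy receptor gene, which ranged from 794 to 1836 in CiPSC (median 1135), against 2 in MEF. Rhox5, an X-linked homeobox gene of the reproductive cluster, ranged from 107 to 2558 in CiPSC (median 987.5), against 1 in MEF. Its level was lowest in CiPSC 3 and CiPSC 4, and it was called with a wide error (difference 8.45, SE 1.73, adjusted p = 0.01). L1td1, an RNA-binding protein gene derived from a LINE-1 element, ranged from 870 to 2167 in CiPSC (median 1472) and was at 0 in MEF. The unnamed gene model Gm38312 was also among the largest rises, at 11344 or 21988 in every CiPSC library, against 44 in MEF. The gene model Gm37381 had one of the highest CiPSC means of all genes at 0 in MEF. It ranged from 470 to 3242 in CiPSC and was at 0 in MEF.

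Genes that mark the step after naive pluripotency were mixed. Of 12 tested primed epiblast and early lineage factors, 5 rose (41.7%) and 1 fell (8.33%), against 19.5% and 16.2% of all genes tested. Fgf5, a growth factor of the post-implantation epiblast, was at 0 in every CiPSC library and at 18 in MEF. Otx2, a homeobox factor of the formative epiblast, ranged from 48 to 148 in CiPSC (median 84) and was at 0 in MEF. The zinc-finger genes Zic2 and Zic5 ranged from 136 to 278 and from 160 to 210 in CiPSC, against 5 and 8 in MEF. The mesoderm factor T ranged from 0 to 6 in CiPSC and was at 0 in MEF. Extraembryonic endoderm genes showed no shared direction, with 3 higher and 5 lower among 19 tested. These shares were 15.8% and 26.3%, against 19.5% and 16.2% of all genes tested. Gata4, Gata6 and Sox17, the defining factors of that lineage, ranged from 0 to 30, 1 to 22 and 0 to 26 in CiPSC, against 8, 80 and 0 in MEF, and none was called. The 5 members that fell were Dab2, Pdgfra, Lamb1, Sparc and Thbd, and which cells their MEF scores came from was not tested.

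Most genes of epithelial adhesion rose. Of 28 epithelial junction genes, 16 rose in CiPSC, 1 fell and the others were not called, and of 9 tested epithelial regulators 7 rose. Cdh1, the gene of E-cadherin, ranged from 1072 to 3428 in CiPSC (median 1893.5), against 2 in MEF, a difference of 9.33 (SE 0.59). The tight-junction gene Cldn4 ranged from 194 to 640 in CiPSC (median 306.5) and was at 0 in MEF. Elf3, an epithelial ETS factor, ranged from 609 to 879 in CiPSC (median 706.5), against 3 in MEF, and its CiPSC values lay close together. Cdh2, the gene of N-cadherin, fell to between 50 and 97 in CiPSC (median 69.5), against 1058 in MEF. P-cadherin (Cdh3) ranged from 80 to 321 in CiPSC, against 564 in MEF, and was not called (adjusted p = 0.058).

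The simple epithelial keratins did not rise with the junction genes. Krt8 ranged from 0 to 18 in CiPSC (median 2), against 6 in MEF. Its dimer partner Krt18 ranged from 0 to 18 in CiPSC (median 2), against 19 in MEF. Neither was called, and the CiPSC range of Krt8 included the MEF value. Krt19 fell to between 0 and 3 in CiPSC, against 22 in MEF (difference -4.19, SE 0.80, adjusted p = 0.0081).

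Germline and meiosis genes rose in more than the background share. Of 30 tested members, 17 were called higher (56.7%, against 19.5% of all genes) and none lower, with a median difference of 3.80 (2.78 with a pseudocount of 5). Hormad1, a protein of the unpaired meiotic chromosome axis, ranged from 166 to 446 in CiPSC (median 256) and was at 0 in MEF. Sycp3, a core component of the synaptonemal complex, ranged from 97 to 140 in CiPSC (median 121) and was at 0 in MEF. Both were above 0 in every CiPSC library, and Sycp3 lay within the narrower range. Dazl, an RNA-binding regulator of germ cells, varied more, from 154 to 1392 in CiPSC (median 534.5), and was at 0 in MEF. Kit, the receptor that primordial germ cells need for survival, ranged from 628 to 1345 in CiPSC (median 777.5), against 7 in MEF.

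Other germline members were not called, and some were uneven among CiPSC. Ddx4, a germ cell RNA helicase gene, ranged from 30 to 72 in CiPSC (median 55), against 15 in MEF (adjusted p = 0.076). Slc25a31, a testis form of the mitochondrial ADP/ATP carrier, was at 55, 57, 0, 82, 116 and 106 in CiPSC 1 to 6 and at 0 in MEF. It was at 0 in CiPSC 3 and well above 0 in the other CiPSC libraries. Sycp2 was at 0 in CiPSC 1 to 4, at 46 in CiPSC 5 and at 77 in CiPSC 6, against 58 in MEF.

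The promoters of the germline list were looked at because many genes of this class are held silent in fibroblasts by DNA methylation and by repressors that bind E-box and E2F motifs. RefSeq promoters (GRCm38.p6) were found for 27 of the 30 members. In the 250 bases before the start site, the E-box CACGTG, searched after these promoters had been looked at, occurred in 14 of the 27 (51.9%), against 8.17% of the tested genes with a promoter and 6.05% of all promoters in the table. It occurred in 8 of the 16 matched members called higher and in 6 of the 11 not called, so the shares were close. GCGGGAA, searched on both strands, occurred in 5 of the 27 (18.5%), against 6.45% of tested genes with a promoter. A match describes letters and is not evidence of binding. The following 3 sequences are shown because they carry the motif in a pair of genes above 0 in every CiPSC library and in one uneven gene, with CACGTG and GCGGGAA in capitals.
Hormad1, chr3:95559427-95559676, plus strand: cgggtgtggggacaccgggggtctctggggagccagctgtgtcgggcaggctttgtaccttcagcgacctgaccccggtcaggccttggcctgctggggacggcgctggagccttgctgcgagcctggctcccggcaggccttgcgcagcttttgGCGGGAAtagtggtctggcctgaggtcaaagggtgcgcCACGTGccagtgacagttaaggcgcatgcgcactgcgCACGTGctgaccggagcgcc
Sycp3, chr10:88459337-88459586, plus strand: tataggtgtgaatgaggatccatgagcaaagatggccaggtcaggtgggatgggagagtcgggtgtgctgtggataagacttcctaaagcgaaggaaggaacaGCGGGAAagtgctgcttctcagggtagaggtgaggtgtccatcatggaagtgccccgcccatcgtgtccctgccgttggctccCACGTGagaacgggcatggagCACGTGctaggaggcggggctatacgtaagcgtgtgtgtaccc
Slc25a31, chr3:40708621-40708870, plus strand: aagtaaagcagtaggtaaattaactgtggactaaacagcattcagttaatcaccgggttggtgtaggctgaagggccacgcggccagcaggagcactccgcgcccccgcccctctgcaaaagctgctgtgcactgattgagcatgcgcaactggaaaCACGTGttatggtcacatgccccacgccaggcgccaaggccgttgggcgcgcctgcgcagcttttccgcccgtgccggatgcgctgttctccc

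DNA methylation and Polycomb enzymes rose in CiPSC. Of 12 genes of the DNA methylation machinery, 10 rose and none fell. Dnmt3b, a de novo methyltransferase, ranged from 416 to 570 in CiPSC (median 434), against 5 in MEF, a difference of 6.28 (SE 0.21). Tet1, an oxidase that removes methylation, ranged from 827 to 2332 in CiPSC (median 1314.5), against 16 in MEF. Writer and eraser were therefore both higher in every CiPSC library. Among their paralogs, Dnmt1 (1002 to 1712 in CiPSC, 294 in MEF) and Dnmt3l (24 to 125 in CiPSC, 1 in MEF) rose as well, whereas Dnmt3a (194 to 603 in CiPSC, 161 in MEF) and Tet3 (64 to 189 in CiPSC, 138 in MEF) were not called.

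Among Polycomb and histone methylation enzymes, 15 of 21 rose and none fell. Suz12, a core subunit of Polycomb complex 2, ranged from 2220 to 3434 in CiPSC (median 2636.5), against 274 in MEF. Its catalytic subunit gene Ezh2 ranged from 714 to 1102 in CiPSC, against 134 in MEF, and the alternative catalytic gene Ezh1 ranged from 94 to 192 in CiPSC, against 124 in MEF, and was not called. Epop, an accessory protein of the complex in stem cells, ranged from 580 to 1441 in CiPSC (median 914.5), against 18 in MEF. It had the largest difference of the list, 5.56 (SE 0.53). The accessory gene Phf19 ranged from 0 to 30 in CiPSC, against 16 in MEF, and was not called.

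Replication and mitosis genes rose almost without exception. Of 32 S phase and mitosis genes, 30 were called higher and none lower, with a median difference of 2.66. The helicase gene Mcm2 ranged from 1754 to 2628 in CiPSC (median 2132), against 170 in MEF. Rrm1, a ribonucleotide reductase subunit, ranged from 776 to 858 in CiPSC, against 457 in MEF, and missed the call only by its size (difference 0.85, SE 0.08, adjusted p = 0.00042). Mki67, often read as a proliferation marker, ranged from 666 to 1118 in CiPSC, against 520 in MEF, and was not called (adjusted p = 0.11). Telomere and recombination repair genes behaved like the S phase list, with 16 of 18 higher and none lower. Dkc1, a telomerase and small nucleolar RNA protein gene, ranged from 1517 to 2917 in CiPSC (median 2253), against 128 in MEF. Tert, the telomerase reverse transcriptase, ranged from 55 to 102 in CiPSC, against 24 in MEF, and was called higher by 1.55 (SE 0.40).

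Regulators of the G1 phase moved in both directions. Of 22 genes, 6 rose (27.3%) and 5 fell (22.7%), near the 19.5% and 16.2% of all genes tested. The cyclin gene Ccnd2 fell to between 0 and 12 in CiPSC (median 3), against 2164 in MEF, a difference of -9.42 (SE 1.82). Its relatives Ccnd1 (264 to 760 in CiPSC, 1554 in MEF) and Ccnd3 (1179 to 1760 in CiPSC, 1006 in MEF) were not called. Ccne1, the G1/S cyclin, ranged from 473 to 777 in CiPSC (median 614), against 154 in MEF, and was called higher. The inhibitor gene Cdkn2b fell to between 15 and 70 in CiPSC (median 37), against 568 in MEF. Its neighbour Cdkn2a fell less far, to between 116 and 232 in CiPSC (median 136.5), against 632 in MEF. Cdkn1a, the inhibitor induced by p53, ranged from 867 to 1535 in CiPSC, against 1650 in MEF, and was not called.

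Trp53 rose, but most of its targets were not called. Trp53 ranged from 1437 to 2167 in CiPSC (median 1702), against 536 in MEF, a difference of 1.69 (SE 0.20). Of 28 genes in the list of p53 and its targets, 2 rose and 2 fell, less than the background, and the median difference was 0. One library stood apart here. CiPSC 2 had the highest score of the 6 in 19 of the 28 genes. The cyclin G1 gene Ccng1 was at 2328, 21988, 3627, 2032, 2164 and 1980 in CiPSC 1 to 6, against 8303 in MEF, so CiPSC 2 alone was at the ceiling and the other 5 libraries were below MEF. Without CiPSC 2, 5 members of the list were called lower in place of 2.

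**Figure D3:**
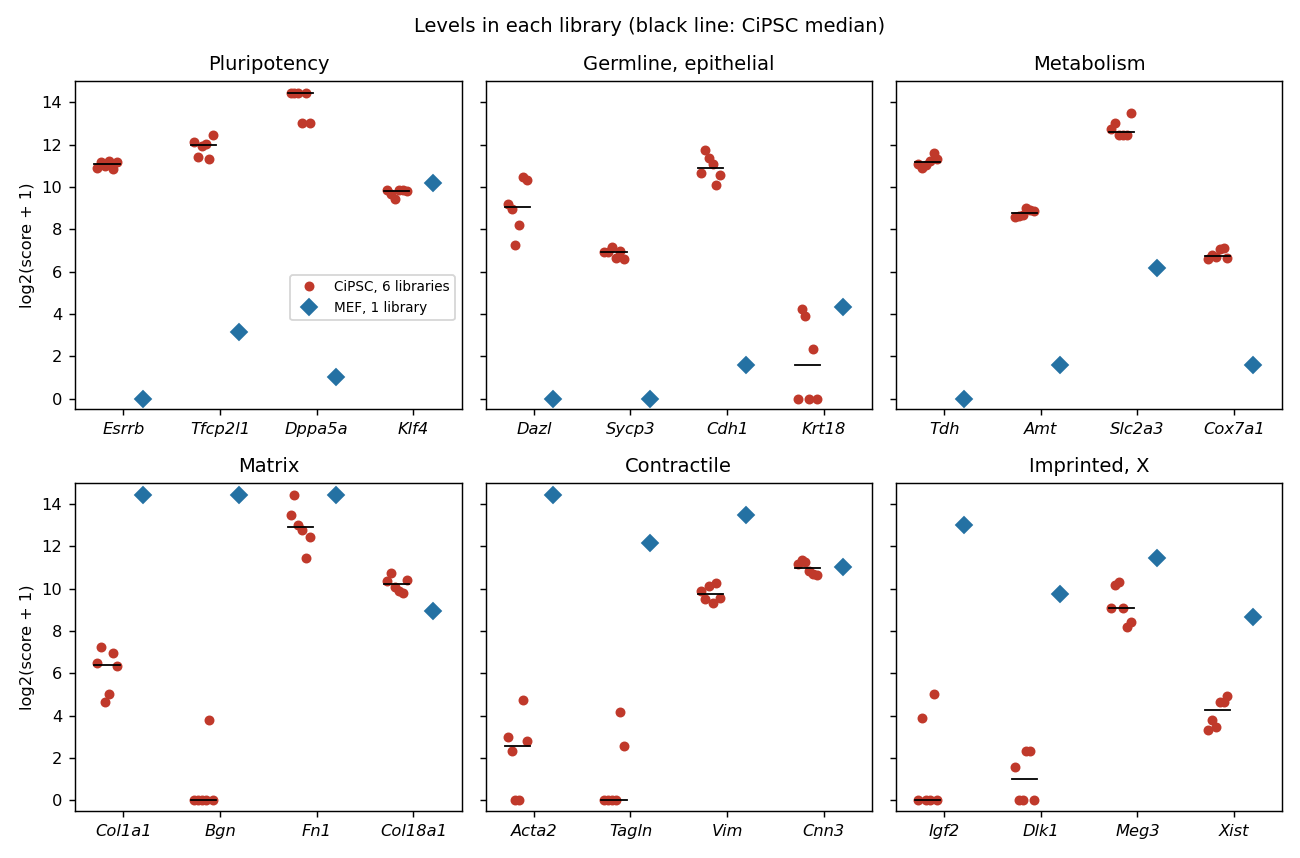
Levels of 24 genes, as log2(score + 1), in the 6 CiPSC libraries (red dots, black line at the median) and the MEF library (blue diamond). Klf4, Fn1 and Cnn3 were not called, Cox7a1 and Col18a1 are higher in CiPSC, and Col1a1, Bgn, Acta2 and Igf2 are far lower in CiPSC.

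Glycine and threonine metabolism carried large single-gene differences. Of 19 genes of serine, glycine and one-carbon metabolism, 12 rose and none fell, with a median difference of 1.63. Tdh, the mitochondrial threonine dehydrogenase on chromosome 14 (mm10, 63492347 to 63509092), ranged from 1924 to 3096 in CiPSC (median 2297) and was at 0 in MEF. It had the highest CiPSC mean of all genes at 0 in MEF. Gldc and Amt, which encode parts of the glycine cleavage system, ranged from 335 to 592 and from 376 to 504 in CiPSC, against 8 and 2 in MEF. The serine synthesis genes upstream did not follow. Phgdh ranged from 556 to 1089 in CiPSC, against 884 in MEF, and Psat1 ranged from 1154 to 2419 in CiPSC, against 836 in MEF, and neither was called.

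Glycolysis genes rose in part. Of 26 genes, 8 were called higher (30.8%, against 19.5% of all genes tested) and none lower, and the median difference was 0.56. Slc2a3, a high-affinity glucose transporter, ranged from 5529 to 11332 in CiPSC (median 6199.5), against 70 in MEF, a difference of 6.61 (SE 0.43). The broadly expressed transporter Slc2a1 rose far less, to between 848 and 1512 in CiPSC (median 1264), against 432 in MEF. The lactate dehydrogenase gene Ldhb ranged from 862 to 2167 in CiPSC (median 1416), against 242 in MEF, while Ldha ranged from 1553 to 2904 in CiPSC, against 1712 in MEF, and was not called. Gapdh, widely used as a reference gene, was at the ceiling of 21988 in every CiPSC library and at 4966 in MEF. Its difference of 2.15 (SE 0.32) is limited by that ceiling, and 6 of the 14 genes listed as common references were called. Of these references, 28.6% were higher and 14.3% lower, against 19.5% and 16.2% of all genes tested. Eef1a1 was at the ceiling in all 7 libraries, so no difference could show. Rplp0 ranged from 4959 to 5524 in CiPSC, against 4962 in MEF.

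Mitochondrial genes with tissue-restricted forms rose in 5 and fell in 2 of 16 tested cases. These shares were 31.2% and 12.5%, against 19.5% and 16.2% of all genes tested. Cox7a1, known as the heart and muscle form of a cytochrome oxidase subunit, ranged from 95 to 139 in CiPSC (median 105), against 2 in MEF, a difference of 5.22 (SE 0.28, adjusted p = 3.5e-05). The 6 CiPSC libraries lay close together and far above MEF. Its widely expressed counterpart Cox7a2 ranged from 422 to 854 in CiPSC (median 489), against 216 in MEF, and rose by 1.25 (SE 0.37), a call lost without CiPSC 1, CiPSC 2, CiPSC 3 or CiPSC 6. Ppargc1a, a coactivator of mitochondrial biogenesis, was at 0 in every CiPSC library and at 22 in MEF.

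Of 20 splicing regulators, 7 rose and 3 fell. The epithelial regulator Esrp1 ranged from 12 to 22 in CiPSC (median 14), against 1 in MEF, and Esrp2 ranged from 30 to 93 in CiPSC, against 15 in MEF, and both were called higher. The call of Esrp2 was lost without any 1 of the libraries CiPSC 1, 3, 4, 5 or 6. Mbnl1, which favours splice forms of differentiated cells, fell to between 124 and 175 in CiPSC (median 151), against 1120 in MEF, a difference of -2.91 (SE 0.18). Mbnl2 ranged from 16 to 150 in CiPSC, against 1116 in MEF, and missed the threshold (adjusted p = 0.052).

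Fibroblast transcription factors fell broadly. Of 35 genes, 26 fell and none rose, with a median difference of -4.96 (-3.57 with a pseudocount of 5). Among these 35, 7 were at 0 in every CiPSC library, against 398 of the 16077 genes tested. Prrx1, a homeobox factor of limb and body-wall mesenchyme, fell to between 0 and 13 in CiPSC (median 2.5), against 2220 in MEF. Twist2, a basic helix-loop-helix factor of the dermis, was at 0 in every CiPSC library and at 418 in MEF. Zeb1, a repressor of Cdh1, was lower but still present, at 84 to 146 in CiPSC (median 102), against 550 in MEF. Its relative Zeb2 fell to between 0 and 8 in CiPSC (median 0), against 419 in MEF.

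Collagen genes gave some of the largest falls in the table. Of 28 tested collagens, 20 fell and 1 rose. Col1a1, the main chain of type I collagen, fell to between 24 and 152 in CiPSC (median 84), against the ceiling of 21988 in MEF, a difference of -8.30 (SE 1.03). Col1a2, its partner chain, fell to between 6 and 68 in CiPSC (median 36), against 21988 in MEF. Because MEF was at the ceiling, these differences may be understated. For both genes every CiPSC library kept a score above 0, and the lowest was CiPSC 3. The type VI chain Col6a2 fell to between 1 and 5 in CiPSC (median 1.5), against 1874 in MEF. The cartilage collagen Col10a1 was at 0 in every CiPSC library and at 535 in MEF. Col18a1, a basement membrane collagen, was the only member that rose, to between 886 and 1712 in CiPSC (median 1185.5), against 492 in MEF (difference 1.26, SE 0.36, adjusted p = 0.034). That call was lost without CiPSC 1, CiPSC 3 or CiPSC 6. The basement membrane genes Col4a1 and Col4a2 did not follow it, and fell to between 24 and 118 and between 6 and 104 in CiPSC, against 5536 and 3842 in MEF, although the call of Col4a2 was lost without CiPSC 1.

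Other matrix proteins fell in 31 of 35 cases, and none rose. Bgn, a small proteoglycan, was at 0 in 5 CiPSC libraries and at 13 in CiPSC 5, against the ceiling of 21988 in MEF. Tnc, the adhesion-modulating glycoprotein tenascin C, had the largest fall among genes above 0 in all 7 libraries, to between 1 and 16 in CiPSC (median 6.5), against 8326 in MEF (difference -10.53, SE 1.45). The calcification inhibitor Mgp had the highest MEF score of all genes at 0 in every CiPSC library, 3846, and the proteoglycan genes Aspn and Ogn, also at 0 in every CiPSC library, had MEF scores of 2042 and 1994. Col1a1 kept a score above 0 in all 6 CiPSC libraries, but it stood at the ceiling in MEF. Its remaining score is therefore not compared with the 0 of these genes. Fbln2 and Thbs1 were at the ceiling in MEF and at 10 to 114 and 0 to 73 in CiPSC. Thbs2, a thrombospondin, fell to between 2 and 46 in CiPSC (median 10), against 6869 in MEF.

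A few matrix genes were not called. The fibronectin gene Fn1 was at 11340, 21988, 8326, 6877, 2769 and 5538 in CiPSC 1 to 6, against the ceiling of 21988 in MEF. CiPSC 2 reached the same ceiling, all CiPSC libraries kept a high score, and the difference was not called (-1.50, SE 1.0, adjusted p = 0.28). Fbln1 ranged from 202 to 330 in CiPSC (median 300.5), against 432 in MEF, and was not called. The secreted phosphoprotein Spp1 ranged from 2774 to 6094 in CiPSC (median 4205), against 6884 in MEF, and was not called.

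Enzymes that process matrix fell with it, 25 of 29 lower and none higher. Lox, the collagen cross-linking oxidase, fell to between 3 and 66 in CiPSC (median 30), against 11344 in MEF. Timp2, an inhibitor of metalloproteinases, fell to between 0 and 40 in CiPSC (median 10), against 6863 in MEF. The collagen chaperone Serpinh1 was lower but kept, at 362 to 650 in CiPSC (median 589), against 3634 in MEF (difference -2.71, SE 0.30). Pcolce2, an enhancer of collagen processing, ranged from 75 to 220 in CiPSC, against 33 in MEF, and was not called (adjusted p = 0.053).

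Contractile and cytoskeletal genes fell in 29 of 34 cases and none rose. Acta2, the smooth muscle actin of activated fibroblasts, was at 7, 4, 0, 0, 26 and 6 in CiPSC 1 to 6, against the ceiling of 21988 in MEF. Tagln, an actin-bundling protein gene, fell to between 0 and 17 in CiPSC (median 0), against 4504 in MEF. The intermediate filament gene Vim was lower but kept, at 636 to 1212 in CiPSC (median 848), against 11340 in MEF. Cnn3, an acidic calponin gene, was not called, with 1617 to 2634 in CiPSC (median 2039), against 2108 in MEF (difference -0.05, SE 0.31). Its relative Cnn1 fell to between 0 and 3 in CiPSC (median 0), against 510 in MEF. Caveola genes fell in 6 of 7 cases, led by Cav1 at 0 to 10 in CiPSC (median 0), against 2428 in MEF. Only Pacsin3 of that list was not called, with 40 to 102 in CiPSC and 86 in MEF.

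Surface proteins of fibroblasts fell in 23 of 28 cases and 1 rose. The adhesion receptor Cd44 fell to between 0 and 16 in CiPSC (median 10), against 2174 in MEF. Itga11, a collagen-binding integrin, fell to between 1 and 2 in CiPSC (median 1.5), against 954 in MEF. Its CiPSC scores of 1, 1, 1, 2, 2 and 2 were a low pattern held by 16 genes, so their small spread is not read. Itgb1, the shared beta subunit of many integrins, was at the ceiling in MEF and fell to between 730 and 1388 in CiPSC (median 823). Emp1, an epithelial membrane protein gene outside the lists, was among the 10 largest falls of called genes above 0 in all 7 libraries, with 7 to 32 in CiPSC (median 17), against 6084 in MEF. Eng, a coreceptor for TGF-beta, was the member that rose, to between 312 and 548 in CiPSC (median 383), against 188 in MEF (difference 1.09, SE 0.34, adjusted p = 0.044). That call was lost without CiPSC 1, CiPSC 3 or CiPSC 4.

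**Figure D4:**
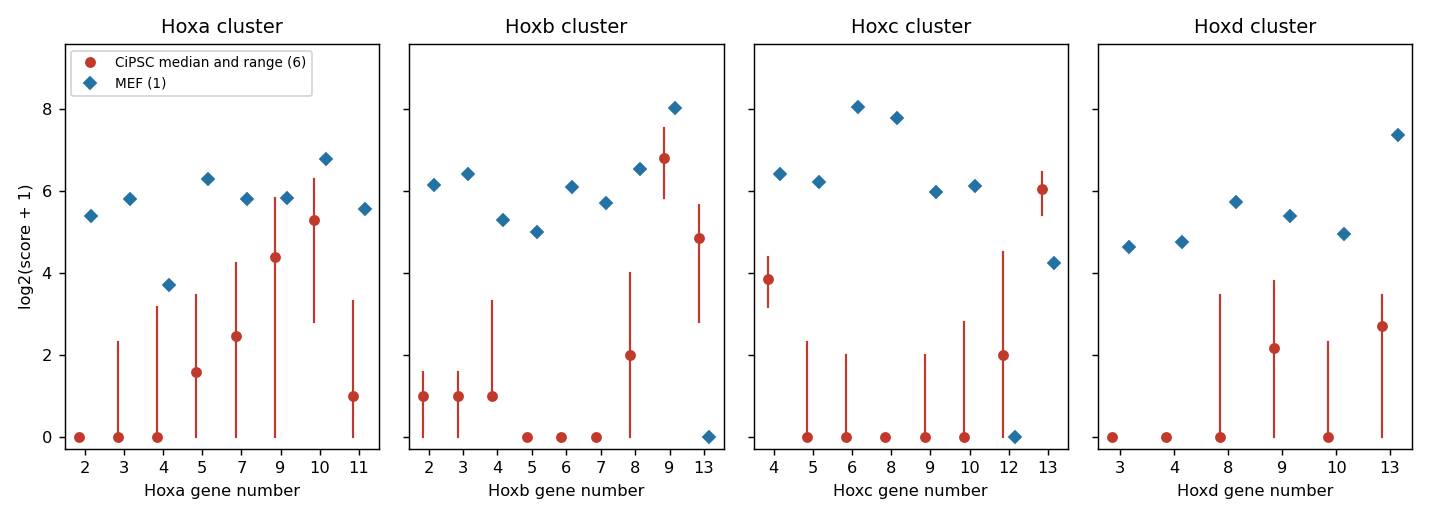
Levels of Hox genes, as log2(score + 1), by cluster and gene number. Red dots and bars give the CiPSC median and range over 6 libraries, and blue diamonds the MEF library. Most genes were higher in MEF, while Hoxb13 and Hoxc13 were higher in CiPSC.

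Hox genes, which record position along the body axis in fibroblasts, fell in 21 of 32 cases and rose in 2. Hoxc6 fell to between 0 and 3 in CiPSC (median 0), against 264 in MEF, and Hoxc8 was at 0 in every CiPSC library and at 220 in MEF. The 2 that rose, Hoxb13 and Hoxc13, are last in their clusters, but Hoxd13, also last in its cluster, fell to between 0 and 10 in CiPSC (median 5.5), against 166 in MEF, a call lost without CiPSC 3. Hoxb13 ranged from 6 to 50 in CiPSC (median 28) and was at 0 in MEF, and Hoxc13 ranged from 42 to 88 in CiPSC (median 65), against 18 in MEF. Some Hox genes remained, as Hoxb9 ranged from 56 to 186 in CiPSC (median 111), against 260 in MEF, and was not called. Hoxa9 was at 43, 30, 2, 0, 10 and 56 in CiPSC 1 to 6, against 56 in MEF, so it was close to MEF in some CiPSC libraries and near 0 in others.

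Factors downstream of stress and mechanical signals fell. Of 12 AP-1 factors, 9 fell and none rose. Fosl2 fell to between 0 and 12 in CiPSC (median 1.5), against 911 in MEF, and Junb fell to between 54 and 98 in CiPSC (median 77), against 1535 in MEF. Jund was the most retained member, with 316 to 564 in CiPSC (median 415.5), against 744 in MEF, and was not called. Among 15 TEAD, YAP and RUNX factors, 8 fell (53.3%) and 2 rose (13.3%), against 16.2% and 19.5% of all genes tested. Runx1 fell to between 0 and 6 in CiPSC (median 0), against 296 in MEF. The TEAD family, DNA-binding partners of YAP, changed in opposite directions. Tead2 (676 to 867 in CiPSC, 272 in MEF) and Tead4 (80 to 149 in CiPSC, 32 in MEF) rose, Tead3 (16 to 62 in CiPSC, 251 in MEF) fell and Tead1 (445 to 1006 in CiPSC, 1210 in MEF) was not called.

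Signalling genes of the TGF-beta and BMP pathways fell in 22 of 31 cases and 1 rose. The ligand gene Tgfb3 fell to between 0 and 4 in CiPSC (median 0), against 1036 in MEF, and the receptor gene Tgfbr2 fell to between 0 and 18 in CiPSC (median 10.5), against 1470 in MEF. The BMP antagonist Grem1 fell to between 0 and 4 in CiPSC (median 0), against 1654 in MEF. Of the BMP targets, Id1 fell to between 4 and 16 in CiPSC (median 9.5), against 576 in MEF. Id3 was at 7, 3, 3, 140, 204 and 131 in CiPSC 1 to 6, against 1152 in MEF. It split the CiPSC libraries into low values in CiPSC 1 to 3 and higher ones in CiPSC 4 to 6, and was not called (adjusted p = 0.17). The activin receptor gene Acvr2b rose, to between 9 and 50 in CiPSC (median 35), against 2 in MEF, a call lost without CiPSC 1 or CiPSC 3.

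In the FGF and LIF pathways, 3 of 25 tested genes rose and 9 fell. Etv5, an ETS factor of the FGF response, ranged from 1209 to 1832 in CiPSC (median 1509), against 212 in MEF, and rose, whereas Fgfr1, a main FGF receptor, fell to between 335 and 524 in CiPSC, against 1125 in MEF. The LIF receptor gene Lifr ranged from 139 to 262 in CiPSC, against 154 in MEF, and was not called. Its signal partner Il6st fell to between 291 and 510 in CiPSC (median 377.5), against 1797 in MEF, and Stat3 fell to between 318 and 486 in CiPSC (median 377), against 1303 in MEF.

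Wnt pathway genes moved in both directions. Of 28 genes, 9 rose (32.1%) and 8 fell (28.6%), against 19.5% and 16.2% of all genes tested. Of the feedback genes, Axin2 ranged from 108 to 282 in CiPSC (median 145.5), against 17 in MEF, and Notum, which inactivates Wnt proteins, ranged from 270 to 526 in CiPSC (median 367) and was at 0 in MEF. Cdx1, a homeobox target, ranged from 182 to 260 in CiPSC (median 214) and was at 0 in MEF. The feedback gene Nkd1 ranged from 0 to 15 in CiPSC, against 37 in MEF, and was not called. The ligand gene Wnt5a fell to between 0 and 4 in CiPSC (median 0), against 473 in MEF, and the inhibitor gene Dkk2 was at 0 in every CiPSC library and at 414 in MEF. The receptor Lgr5, a Wnt target in several epithelia, fell to between 2 and 5 in CiPSC (median 2.5), against 208 in MEF. Sfrp1, an inhibitor, ranged from 156 to 524 in CiPSC, against 573 in MEF, and was not called.

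Secreted factors of fibroblasts fell in 22 of 32 tested cases. Cxcl12, a chemokine that retains blood progenitors, was at 0 in every CiPSC library and at 2102 in MEF. The inflammatory chemokine Ccl2 fell to between 0 and 10 in CiPSC (median 0), against 706 in MEF. Igfbp2, an IGF-binding protein, was the only member that rose, to between 997 and 3643 in CiPSC (median 1863.5), against 464 in MEF, a call lost without CiPSC 1, CiPSC 3, CiPSC 5 or CiPSC 6. The related Igfbp7 fell to between 0 and 16 in CiPSC (median 8), against 3633 in MEF.

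Antigen presentation and interferon genes were mostly lower, 18 of 32 lower and 2 higher. B2m, the invariant chain of MHC class I, fell to between 24 and 100 in CiPSC (median 47), against 3846 in MEF, a difference of -6.25 (SE 0.72). The class I heavy chain gene H2-D1 fell to between 106 and 195 in CiPSC, against 426 in MEF, while H2-K1 ranged from 86 to 325 in CiPSC, against 341 in MEF, and was not called. The interferon-induced Isg15 was at 0 in every CiPSC library and at 178 in MEF. Members of the Ifitm family differed among themselves. Ifitm1 ranged from 390 to 1108 in CiPSC (median 531), against 13 in MEF, and rose by 5.36 (SE 0.50). Ifitm2 (912 to 1116 in CiPSC, 736 in MEF) and Ifitm3 (819 to 1013 in CiPSC, 1468 in MEF) missed the size needed for a call.

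Markers of macrophages, a cell type that fibroblast cultures can carry, stood beside these falls. Of 15 tested macrophage and blood markers, 12 were lower in CiPSC. At 0 in every CiPSC library were 7 of these markers, against 398 of the 16077 genes tested. Lyz2, the macrophage lysozyme, was at 0 in every CiPSC library and at 1686 in MEF. C1qa, C1qb and C1qc were at 0 in every CiPSC library and between 374 and 498 in MEF, and Ptprc and Adgre1 were at 0 in every CiPSC library and at 178 and 154 in MEF. The summed score of the 15 markers was 402 to 721 in CiPSC, of which 283 to 620 came from Laptm5, and 6079 in MEF. The part of such cells in the cytokine, interferon and antigen presentation results was not tested. In such bulk samples, fewer cells of a type and less RNA per cell cannot be told apart.

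Markers of other cell types were also counted, in lists with few tested members. Over all genes tested, 19.5% were higher and 16.2% lower. Of 10 tested endothelial markers, 3 rose and 3 fell. Pecam1, an adhesion gene of endothelium and of mouse embryonic stem cells, ranged from 404 to 540 in CiPSC (median 517), against 6 in MEF, while Cdh5, which defines endothelium, was at 0 in CiPSC and at 2 in MEF. The endothelial genes Flt1, Emcn and Erg fell, from 395, 92 and 34 in MEF to at most 10, 0 and 1 in CiPSC. All 5 tested adipocyte markers fell, with Cd36 at 0 in every CiPSC library and at 161 in MEF. The adipocyte gene Adipoq was at 0 in all 7 libraries, MEF included, and was not tested. Among 9 tested trophoblast markers 3 rose, led by Tfap2c, a factor shared with germ cells, which ranged from 296 to 848 in CiPSC (median 549.5) and was at 0 in MEF. The trophoblast gene Cdx2 ranged from 2 to 60 in CiPSC, against 1 in MEF, and was not called. Neural markers were mixed (3 higher and 1 lower of 9, but 1 higher without CiPSC 1 or CiPSC 4), and the neuronal gene Dcx was at 0 in all 7 libraries. Muscle markers were 1 higher and 1 lower of 5 (3 higher without CiPSC 3, 2 lower without CiPSC 6), cartilage and bone markers 1 higher and 4 lower of 8, neural crest markers 1 higher and 4 lower of 8, and keratinocyte markers 0 higher and 1 lower of 4.

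Imprinted genes were lower in 11 of 35 cases (31.4%) and higher in 4 (11.4%), against 16.2% and 19.5% of all genes tested. The growth factor gene Igf2 and the noncoding gene H19, neighbours on chromosome 7 that are expressed from opposite parental alleles, both fell. Igf2 was at 0, 14, 0, 0, 32 and 0 in CiPSC 1 to 6, against 8314 in MEF. H19 fell to between 3 and 110 in CiPSC (median 30), against 11331 in MEF. At the Dlk1-Dio3 locus on chromosome 12, Dlk1 fell to between 0 and 4 in CiPSC (median 1), against 854 in MEF. The other protein genes of the locus, Dio3 (0 to 60 in CiPSC, 4 in MEF) and Rtl1 (0 to 18 in CiPSC, 19 in MEF), were not called. The maternally expressed noncoding gene Meg3, whose silencing has been linked to poor developmental potential of mouse pluripotent lines, was at 542, 1136, 1255, 549, 288 and 346 in CiPSC 1 to 6, against 2760 in MEF. Meg3 thus kept a score of 288 or more in all 6 CiPSC libraries, and neither it nor Rian was called (adjusted p = 0.084 and 0.082). The members that rose were Usp29, Snrpn, Mkrn3 and Peg12, of which Usp29 ranged from 29 to 66 in CiPSC and was at 0 in MEF.

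Sex-linked genes showed that the CiPSC libraries were not alike. Xist, the RNA that coats the inactive X chromosome, fell to between 9 and 29 in CiPSC (median 18.5), against 398 in MEF, and its antisense gene Tsix rose to between 3 and 38 in CiPSC (median 15), against 0 in MEF. The call of Tsix was lost without CiPSC 1, CiPSC 3, CiPSC 4 or CiPSC 6. Whether the authors counted by strand is not given in the sources used here, and reads of an overlapping pair cannot then be told apart. The Y-linked gene Ddx3y was at 0, 0, 446, 476, 48 and 0 in CiPSC 1 to 6, against 362 in MEF. Uty was at 4, 0, 210, 202, 52 and 1 in the same order, against 147 in MEF. High scores in CiPSC 3 and CiPSC 4 and a score near 0 in CiPSC 1, CiPSC 2 and CiPSC 6 were shared by both genes. The Y-linked gene Kdm5d did not show this split, at 48, 78, 60, 88, 75 and 66 in CiPSC 1 to 6, against 178 in MEF, and was called lower. The MEF library held Xist and Y-linked transcripts together.

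Genes of the 2-cell-like state, a rare condition that stem cells in culture enter transiently, also varied. Of 13 tested genes, 5 rose (38.5%, against 19.5% of all genes tested) and none fell. Among the 5, 4 are Zscan4 paralogs that share sequence, so reads may be divided among them. Zscan4c was at 76, 678, 112, 553, 56 and 58 in CiPSC 1 to 6 and at 0 in MEF. Zscan4f was at 54, 1343, 190, 1206, 120 and 46 in CiPSC 1 to 6 and at 0 in MEF, and its call was lost without CiPSC 3. CiPSC 2 and CiPSC 4 were high for both, and CiPSC 2 had the highest score of the 6 in 10 of the 13 genes. Scores above 0 were nevertheless found in every CiPSC library for each of the 4 called paralogs.

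**Figure D5:**
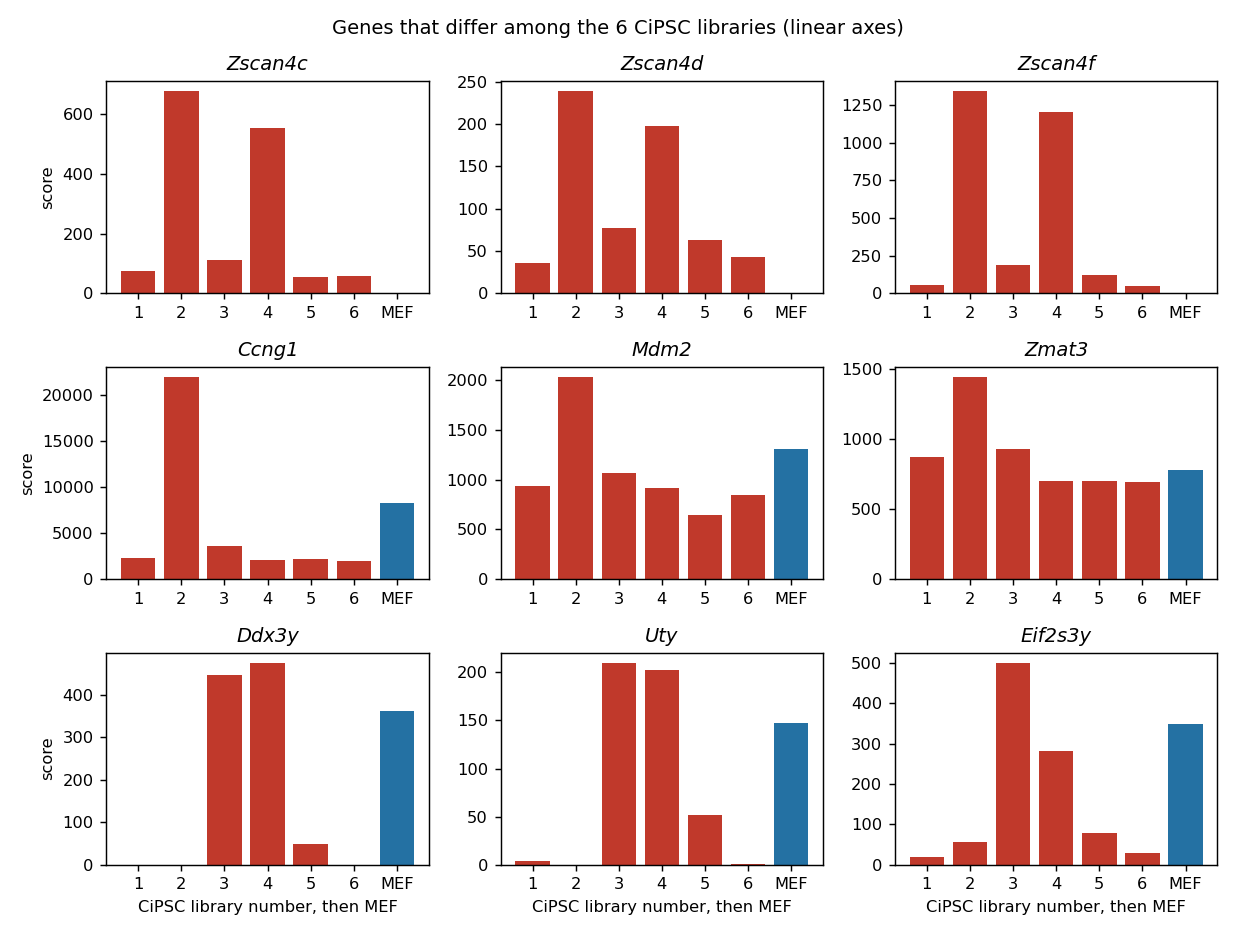
Scores on linear axes in CiPSC libraries 1 to 6 (red bars) and MEF (blue bar) for Zscan4 genes, p53 targets and Y-linked genes. CiPSC 2 and CiPSC 4 stand out for Zscan4c, Zscan4d and Zscan4f, CiPSC 2 for Ccng1, Mdm2 and Zmat3, and CiPSC 3 and CiPSC 4 for Ddx3y, Uty and Eif2s3y.

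Several abundant housekeeping genes at the ceiling in CiPSC had lower scores in MEF. Exactly 10 genes held the ceiling in each library. In MEF they were Col1a1, Col1a2, Col3a1, Fbln2, Bgn, Acta2, Thbs1, Fn1, Itgb1 and Eef1a1. How far their ranks lowered the MEF scores of the genes below was not tested. Identical CiPSC scores at the ceiling also show no spread of their own. Hsp90aa1, a chaperone gene, was at 21988 in every CiPSC library and at 2556 in MEF, and Hsp90ab1 was at 21988 in every CiPSC library and at 6080 in MEF. The nucleolar genes Npm1 and Ncl reached the ceiling in 6 and in 5 of the 6 CiPSC libraries, against 5544 and 2284 in MEF. The ATP synthase gene Atp5b was at 21988 in every CiPSC library and at 6868 in MEF. All 5 were called higher. Hnrnpu, a nuclear RNA-binding protein gene, ranged from 11324 to 21988 in CiPSC, against 3414 in MEF, and the tubulin gene Tuba1b ranged from 8307 to 21988 in CiPSC, against 3414 in MEF, and both were called higher. The call of Tuba1b was lost without any 1 of CiPSC 1, 3, 4, 5 or 6. Pabpc1, which binds poly(A) tails, ranged from 11344 to 21988 in CiPSC, against 6094 in MEF, and was not called (adjusted p = 0.11).

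Very low scores carry little information in this table. Among the 6 CiPSC libraries, 878 genes were at 0 in all, and the same pattern of 1, 1, 0, 1, 1 and 1 over CiPSC 1 to 6 was held by 43 genes, so low values recur as shared patterns. Where a CiPSC score was 0 to 4, no order among libraries is read from it.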

How the data were processed

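RNA sequencing of 6 CiPSC libraries and 1 MEF library was analysed from the table the authors deposited for all 26 libraries. Per the labels' protocols, TRIzol was used for extraction, a TruSeq kit for library preparation and a NextSeq 500 for sequencing. Bowtie2, RSEM, bcl2fastq and the mm10 build are listed, without versions, per the submitters' processing notes. The deposited values are treated as a score that the authors had quantile-normalized and rounded to whole numbers. The table is named as CPM, which its totals of 4143561 or more per library contradict, so no count test was run and no interval or detection floor can be given.

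Scores were analysed as log2(score + 1) with limma 3.58.1 in R 4.3.3, with an intensity trend and two-sided tests adjusted by Benjamini-Hochberg over all 16077 genes with a mean of at least 1. All 7 libraries entered 1 fit without covariates, and the function was tested on simulated data. In those data, 39% of 100 genes set to differ by 2 on the log2 scale were recovered. Of 100 genes set to differ by 3, 76% were recovered, and 0.0264% of the unchanged genes were called. A gene reported as not called is therefore not shown to be unchanged. Those data held 15375 genes, of which 200 were set to differ, whereas 35.6% of the genes tested in the 7 libraries were called. Whether the rates hold for the libraries was not tested, nor was the assumption that MEF varies like CiPSC. Positions are from GENCODE M21 (mm10) and promoters from RefSeq (GRCm38.p6).

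The libraries compared and the 46 gene lists (897 genes in the table, 875 tested) were chosen with earlier results of these data known. Named genes are the 10 largest rises and falls among called genes above 0 in all 7 libraries, the 5 highest genes at 0 in one state, list members, and genes at the ceiling. Alternatives changed the pseudocount, filter, variance model, centring, threshold and CiPSC libraries. Columns of the reprogramming courses were not used here, and a few genes of the lists are not reported by name.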

Additional observations from a re-analysis of the deposited data

Results flagged for a closer look

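Among the 199 genes named above with any spread in CiPSC, 29 had 1 CiPSC library whose gap to the nearest other library passed Dixon's 95% critical value for 6 samples. Chance flags about 1 in 20 groups of continuous values, a rate that does not hold for rounded scores bounded at 0 and at a ceiling. In 8 of the 29, the other 5 libraries were all at 0 or all at the ceiling, so any value apart from theirs passes. Of the 29, 10 were in CiPSC 2, 9 in CiPSC 5, 3 each in CiPSC 1 and CiPSC 4, and 2 each in CiPSC 3 and CiPSC 6.

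In CiPSC 2, the p53-linked genes stood above the other 5 libraries, with Ccng1 at 21988, Mdm2 at 2036, Cdkn1a at 1535 and Zmat3 at 1441. The interferon-linked Ifitm1 was at 1108, Cdh3 at 321 and Timp2 at 40 there, also above the others. Esrp2 was below the others at 30.

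In CiPSC 5, Acta2 at 26, Tagln at 17 and Fosl2 at 12 stood above the other libraries, against 21988, 4504 and 911 in MEF. Cox7a2 at 854 was also above the others in CiPSC 5, and Tead1 at 445 and Dnmt1 at 1002 were below them. In CiPSC 1, Fgf4 at 1272 and Gldc at 592 were the high values. Lgr5 at 5 was also flagged there, but the other libraries were at 2 or 3, so no order is read from it. In CiPSC 4, Tead3 at 62 was high and Serpinh1 at 362 was low. In CiPSC 6, Axin2 at 282 and Thbd at 28 were high.

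The 8 whose other libraries were all at one bound are given as values only. Bgn at 13, Ccl2 at 10 and Grem1 at 4 in CiPSC 5, Runx1 at 6 in CiPSC 4, and Krt19 and Cnn1 at 3 in CiPSC 3 were each at 0 in the other 5 libraries. Hnrnpu at 11324 and Ncl at 11338 in CiPSC 2 were at the ceiling in the other 5. The pattern of 3 in CiPSC 3 and 0 elsewhere was held by 33 genes, and no order among libraries is read from it.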

How the results depend on the processing

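No gene called in the reported fit was called in the opposite direction under any of the 15 alternatives run. All of them used the same MEF library and most of the same CiPSC libraries, so an opposite call was hardly possible. Testing against a log2 difference of 1 (limma treat) gave 2962 calls, 1547 higher and 1415 lower, in place of 5726, 3129 and 2597. With treat, 28 of 223 named genes lost their call, and 14 of 49 list counts moved by more than 1.5 times. The other alternatives stayed within 1.5 times of the reported counts of all called genes, between 5235 and 6578 calls. Without 1 CiPSC library at a time there were 5235 to 5793 calls, 2885 to 3172 higher and 2350 to 2621 lower. The share of calls that were higher was 50.2% with centring, 50.5% with a pseudocount of 5 and 58.9% without the genes at 0 in every CiPSC library. Called list members numbered 445 with treat and 543 to 594 otherwise, against 574. Counting scores of up to 2 as off gave 733 genes off in MEF and 579 off in CiPSC, and leaving out 1 CiPSC library 573 to 606 and 501 to 577. Without CiPSC 2, Ccnd1, Ccng1, Cdh3, Eras, Gata6 and Nacc1 became called, without CiPSC 3 Rian and Slc25a31, and without CiPSC 5 Pcolce2. Leaving out the genes at 0 in every CiPSC library, or a robust prior, also brought in Ccnd1, Cdh3, Mbnl2, Meg3, Nacc1, Pabpc1, Pcolce2 and Rian. With a pseudocount of 5, Hoxb13, Tsix and Zscan4f lost their call and Dcn gained one. Without the filter, Atp5b, Hsp90ab1, Igfbp2, Npm1 and Tuba1b were not called, and with centring Cox7a2, Eng, Igfbp2 and Tuba1b were not. Lower macrophage markers numbered 5 rather than 12 when genes at 0 in every CiPSC library were not tested, and 3 rather than 5 of the 2-cell-like genes were higher with a pseudocount of 5. No paired analysis was possible because MEF has 1 library, and leaving it out leaves no comparison. Depth is unknown, and 1 MEF library cannot show how fibroblast cultures vary.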
